A study of Mus musculus with 6 samples.

Results

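FOXC2 ChIP-seq of mouse podocytes gave 1 pooled peak list for animals injured with adriamycin (ADR) and 1 for animals given PBS. The sites described here are the FOXC2 peaks found in both lists whose summit lies in an intron, called shared intronic sites below. They were chosen by 2 criteria: an ADR peak overlapping a PBS peak by at least 1 bp, and an ADR summit inside a GENCODE M21 transcript but outside promoters, transcript ends and exons. A promoter spans 1 kb upstream to 100 bp downstream of a transcript start, and a transcript end spans 100 bp upstream to 1 kb downstream. Of the 40067 ADR peaks 16640 had an intronic summit, and 9441 of these overlapped one of the 41075 PBS peaks. Each was paired with the overlapping PBS peak of nearest summit. The mice of both conditions were male littermates of mixed genetic background, of an age not given in the sources used here, carrying the mT/mG reporter and a Cre active in podocytes, so that FACS could collect cells with green membranes. ADR was injected at 18 mg/kg into the retro-orbital sinus on days 0 and 7, control mice received PBS, and the cells were collected on day 9. The authors pooled the 3 samples of each condition into 1 list. Chromatin was precipitated with an antibody labelled Abcam b5060. With 1 list per condition no value has a replicate error and no test between the conditions was possible here. The 95% intervals given for shares cover counting error only, and the read depth behind the lists is unknown. The cells are defined by the Cre driver and the sort alone. Peaks say where FOXC2 was bound and are no measure of which cell types were present.

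FOXC2 is a forkhead transcription factor, and forkhead proteins bind short A-rich sequences of the form RYAAAYA. Introns hold many of the enhancers that act on their own or on neighboring genes. In podocytes, the cells that wrap the glomerular capillaries and build the slit diaphragm, WT1 (a zinc finger protein), LMX1B (a homeodomain protein) and the TEAD partners of YAP and TAZ regulate the specialized gene program, while AP-1 dimers of FOS and JUN proteins respond to stress and growth signals in many cells.

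The sequences of 7 sites show what the strings discussed below look like at individual summits. They were taken from the 201 bases of the GRCm38 reference centered on the ADR summit and are written 5′ to 3′ on the plus strand. Capitals mark every exact match, on either strand, to the strings of forkhead factors (RYAAAYA), AP-1 (TGASTCA), WT1 (GNGKGGGMG), TEAD (RCATTCCW) and LMX1B (TAATTAA, or its reverse complement TTAATTA). The *Lmx1b* window (chr2:33605939-33606139, intron 2, fold 46.5 in ADR and 14.01 in PBS) is the strongest ADR site of the gene that encodes LMX1B, and has a forkhead match 14 to 8 bp before the summit and a WT1 match. The *Arhgap24* window (chr5:102829832-102830032, intron 3, 42.9 and 5.72) joins a forkhead and an LMX1B match at a site far higher in ADR. The *Ildr2* window (chr1:166282688-166282888, intron 3, 42.6 and 28.2) and the *Plxnb1* window (chr9:109097018-109097218, intron 1, 48.9 and 40.7) have a TEAD match across the summit. The *Plxnb1* site had the highest ADR fold of all sites in coding genes. The *Nphs1* window (chr7:30478120-30478320, intron 23, 24.02 and 47.6) is the only shared intronic site of the nephrin gene and has 1 WT1 match. The *Pdcd6ip* window (chr9:113707728-113707928, intron 1, 39.6 and 66.8) shows an AP-1 and a WT1 match at a site higher in PBS. The *Gprc5c* window (chr11:114867671-114867871, intron 3, 3.05 and 56.9) belongs to the smallest ratio of ADR to PBS, from paired summits 605 bp apart.
Lmx1b: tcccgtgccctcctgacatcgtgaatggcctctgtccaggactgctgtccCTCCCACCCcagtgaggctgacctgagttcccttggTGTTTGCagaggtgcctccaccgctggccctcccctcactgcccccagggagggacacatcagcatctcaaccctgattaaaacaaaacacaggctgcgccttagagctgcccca
Arhgap24: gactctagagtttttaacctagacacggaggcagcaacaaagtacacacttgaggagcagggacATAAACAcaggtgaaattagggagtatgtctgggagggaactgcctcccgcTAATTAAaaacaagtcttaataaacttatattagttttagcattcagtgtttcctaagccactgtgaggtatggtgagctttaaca
Ildr2: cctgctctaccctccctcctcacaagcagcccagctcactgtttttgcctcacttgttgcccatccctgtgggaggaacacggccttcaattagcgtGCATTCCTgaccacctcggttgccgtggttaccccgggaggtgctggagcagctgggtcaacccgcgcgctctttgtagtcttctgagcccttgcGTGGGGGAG
Plxnb1: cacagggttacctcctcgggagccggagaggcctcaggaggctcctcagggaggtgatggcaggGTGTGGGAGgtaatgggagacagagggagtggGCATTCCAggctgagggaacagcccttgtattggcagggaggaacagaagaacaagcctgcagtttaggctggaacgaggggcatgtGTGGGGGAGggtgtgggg
Nphs1: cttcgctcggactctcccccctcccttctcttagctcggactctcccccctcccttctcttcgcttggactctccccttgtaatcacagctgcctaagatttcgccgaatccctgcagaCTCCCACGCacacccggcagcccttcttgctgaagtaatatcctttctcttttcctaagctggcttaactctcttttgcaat
Pdcd6ip: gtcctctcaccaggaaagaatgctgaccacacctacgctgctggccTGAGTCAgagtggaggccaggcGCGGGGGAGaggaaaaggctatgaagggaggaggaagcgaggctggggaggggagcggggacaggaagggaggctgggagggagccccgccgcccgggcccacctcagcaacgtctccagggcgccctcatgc
Gprc5c: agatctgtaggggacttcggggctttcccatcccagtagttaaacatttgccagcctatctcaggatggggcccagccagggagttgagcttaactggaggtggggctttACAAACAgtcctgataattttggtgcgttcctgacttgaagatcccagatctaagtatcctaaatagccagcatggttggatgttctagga

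Intronic peaks were shared less often than ADR peaks as a whole. Of the intronic ADR peaks 56.7% (95% Wilson interval 56.0 to 57.5) overlapped a PBS peak, against 67.7% of all ADR peaks, 89.5% of promoter peaks and 59.5% of intergenic peaks. The rule fixes these overlaps, so they are a description. The share depended on strength, with 1833 of 2016 intronic ADR peaks of fold 20 or more (90.9%) being shared. Shared intronic sites made up 40.8% of all ADR peaks of fold 20 or more and 49.1% of those of fold 40 or more. At any fold they were 9441 of the 40067 ADR peaks, and introns held 41.5% of that list. Sharing of strong peaks was not counted in other classes, so it is not shown to be particular to introns. The paired peaks were close to each other. Their summits lay a median of 22 bp apart, within 50 bp for 78.6% of sites and within 200 bp for 95.9%, and the PBS summit was intronic too for 98.2%. The ADR peaks had a median width of 391 bp and the PBS peaks of 343 bp. 2 PBS peaks were overlapped by 204 sites and 3 by 7 sites, and 128 sites shared their PBS peak with another site.

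The fold, the authors' enrichment over the local control at the summit, had a median of 9.40 in ADR (quartiles 5.90 and 17.1) and of 7.82 in PBS (5.49 and 12.7). The highest folds were 48.9 in ADR and 75.7 in PBS. In ADR 69 sites lay within 10% of the highest value and in PBS 4 did, so the ADR folds were crowded at the top. Across the 9441 sites the log2 folds of both lists had a Pearson r of 0.52 and a Spearman correlation of 0.47. This is a correlation across sites, which are not independent replicates and share the depth of their list. The median log2 ratio of ADR over PBS was 0.17 (quartiles -0.37 and 0.80, range -4.22 to 3.49), against 0.04 for all shared ADR peaks, -0.06 at promoters and 0.09 at intergenic sites. The ADR fold was the higher in 5485 sites, 58.1% (57.1 to 59.1). This direction depended on the scale, since the percentile rank of a peak within its own list was the higher in ADR for 49.4% of sites (and for 41.3% of all shared ADR peaks).

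A ratio of at least 1.4 toward ADR was seen at 3390 sites (35.9%), beside 27.4% of all shared ADR peaks. A ratio of at least 1.4 toward PBS was seen at 1936 sites (20.5%), beside 22% of all shared ADR peaks. The remaining 4115 sites lay between. The study itself ran a DESeq2-based test of differential binding, with an FDR limit beside the 1.4 cut. It reported no significant change at most of the sites bound in both conditions. Passing 1.4 on the pooled folds is therefore not differential binding in the study's sense. Shared promoter sites had 16.6% and 22.1%, and shared intergenic sites 33.3% and 24.6%. At a ratio of at least 2 the counts were 1849 and 730, and at 4 they were 291 and 78. These were not counted over all shared ADR peaks. The 5th and 95th percentiles of the log2 ratio were -1.20 and 1.78, beside -1.16 and 1.56 over all shared ADR peaks. Split into 5 equal groups by PBS fold, the sites of the lowest group (2.49 to 5.18) had a median log2 ratio of 0.61 and those of the highest (14.6 to 75.7) one of -0.23. Because the PBS fold enters the ratio, part of that trend is built into the measure.

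**Figure D1:**
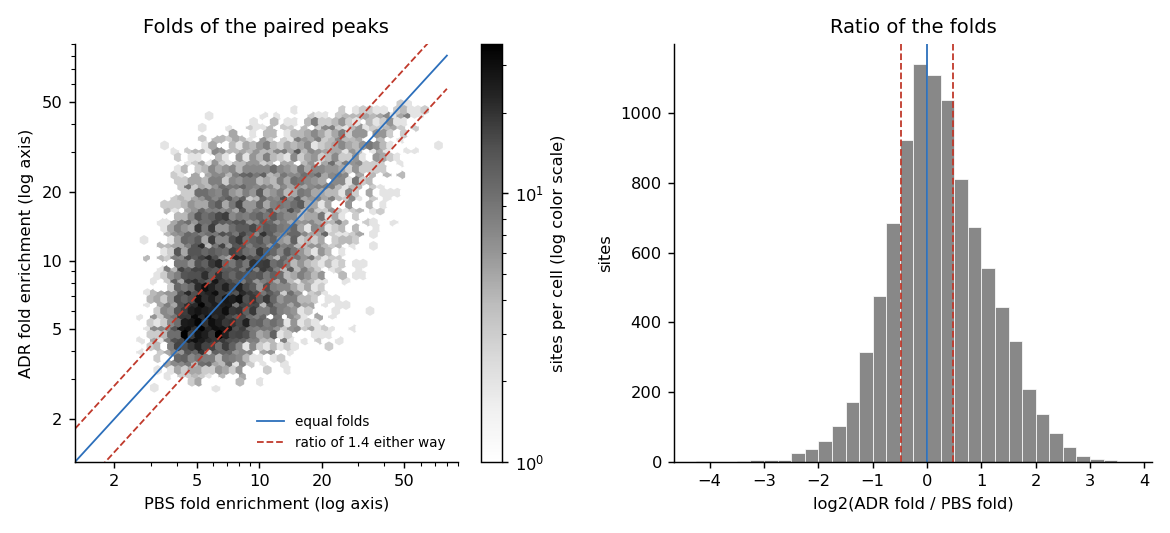
Left, ADR fold against PBS fold for the 9441 shared intronic sites on log axes, with darker cells holding more sites, the line of equal folds and dashed lines at a ratio of 1.4 either way. Right, histogram of the log2 ratio with the same lines. The sites spread widely around equality with a longer shoulder toward ADR (median 0.17), and ADR folds end below 50 where PBS folds reach 75.7.

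A fold of 20 or more was found at 1833 sites in ADR and 1071 in PBS, and at 678 in both. A fold of 40 or more was found at 194 and 175 sites, and at 60 in both. The 10 coding-gene sites of highest ADR fold lay between 47.8 and 48.9 in ADR and between 17.1 and 50.3 in PBS, with summits 1 to 26 bp apart. They lay in *Plxnb1* (a semaphorin receptor), *Srgap1* (a GTPase-activating protein), *Scamp1*, *Dctd*, *P3h2* (a collagen prolyl hydroxylase), *Tollip*, *Agpat4*, *Cdc45*, *Slain2* and *Map4k3*. Of these 10 sites 5 held a TEAD match, 4 a WT1 match and 2 a forkhead match. Over all shared intronic sites these strings were found in 12.2%, 34.1% and 26.8%. The 10 coding-gene sites of highest PBS fold reached 63.6 to 74.8 in PBS and 9.79 to 47.6 in ADR. Of these 10 sites 6 held a WT1 match, 1 a TEAD match and 2 a forkhead match, searched around the ADR summit. In 2 of them the paired summits lay more than 200 bp apart, at up to 880 bp, and one of these was the *Jup* site of 9.79 in ADR, whose folds compare different positions. They lay in *Wfdc1* (74.8 in PBS and 40.9 in ADR), *Jup*, which encodes plakoglobin and had 2 sites, *Pdcd6ip*, *Timp2* (an inhibitor of metalloproteinases), *Midn*, *Maml3* (a Notch coactivator), *2010111I01Rik*, *Creb3l2* and *Bcl3*.

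The sites of largest ratio had low folds in PBS. Among sites with a fold of at least 10 in the higher list, the 10 largest log2 ratios in coding genes ran from 3.03 to 3.49, with PBS folds of 2.79 to 5.21 and ADR folds of 28.6 to 45.9. Their summits lay 2 to 31 bp apart. They were in *Pepd* (31.3 in ADR and 2.79 in PBS), *Gmds*, *Grk5*, *Ccdc192*, *Bcas3*, *Cers6* (45.9 and 5.21), *Sh3glb1*, *Abr*, *Ablim3* (an actin-binding LIM protein) and *Fyn*, the kinase that phosphorylates nephrin. None of the 10 held a WT1 or TEAD match and 3 held a forkhead match. Over all shared intronic sites these strings were found in 34.1%, 12.2% and 26.8%. Among the 10 sites of smallest ratio 2 held a WT1 match, 1 a TEAD match and likewise 3 a forkhead match, all searched around the ADR summit. The 10 smallest log2 ratios ran from -4.22 to -2.87. In 8 of them the summits lay more than 200 bp apart, so these ratios compare different positions of the paired peaks. The windows searched at these 8 sites did not reach the PBS summit. The other 2 were in *Nckap5* (4.60 in ADR and 39.1 in PBS, summits 18 bp apart) and *Cdk6* (3.25 and 23.8, 47 bp apart). Over all sites with a ratio of at least 4 toward PBS, 23 of 78 had summits more than 200 bp apart and 18 shared their PBS peak. Toward ADR 5 of 291 had such distant summits and 0 shared a PBS peak. Pairing started from the ADR peaks, so a PBS peak could serve several ADR peaks, while each ADR peak took only the PBS peak of nearest summit. The rule thus does not treat both directions alike.

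Sequence was not used to choose the sites. A WT1 string lay within 100 bp of the summit in 34.1% of shared intronic sites (33.2 to 35.1), against 5.60% of windows of the same length centered 1 kb to either side. Shared intronic sites exceeded ADR-only intronic sites by 14.2 percentage points (95% Newcombe interval 12.9 to 15.5) and PBS-only intronic sites by 14.1 points (12.7 to 15.5). Shared promoter and shared intergenic sites had 32.4% and 33.0%. Among sites of fold 10 or more the excess over PBS-only sites was 3.11 points (-2.64 to 8.47), with 297 PBS-only sites left. That cut used the ADR fold for shared sites and the PBS fold for PBS-only sites, so the sides were not cut alike. It kept 4454 shared sites, of which 2405 also had a PBS fold of 10 or more. A TEAD string was found in 12.2% of sites and 3.51% of flanking windows. This exceeded PBS-only sites by 4.37 points (3.42 to 5.31) and ADR-only sites by 1.38 points (0.39 to 2.35), and the latter difference was 0.40 points (-0.41 to 1.201) within 50 bp of the summit. The E-box CAGCTG, a string of basic helix-loop-helix factors, was found in 19.4% of sites and 10.6% of flanks, 4.15 points (2.94 to 5.34) above PBS-only sites. It differed by -1.71 points (-2.94 to -0.48) from ADR-only sites, which had 21.06%.

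The forkhead string behaved differently. RYAAAYA was found in 26.8% of shared intronic sites (25.9 to 27.7) and in 28.0% of their flanking windows, so it was no more frequent at the summits than beside them. The GC content of flanking windows was not measured, so for this and the other strings summits and flanks were not compared at like base composition. ADR-only intronic sites had 38.9% against 31.0% in flanks. Shared sites differed from them by -12.1 points (-13.6 to -10.7), or -6.19 points (-8.15 to -4.24) among sites with a GC content of 45 to 55%. Shared sites exceeded PBS-only sites by 4.43 points (3.05 to 5.80). The stricter forkhead string GTAAACA was found in 4.80% of shared sites and 2.66% of flanks, with 7.13% in ADR-only and 3.37% in PBS-only sites. The LMX1B string was found in 2.91% of shared sites and 3.12% of flanks, again without an excess at the summit, while ADR-only sites had 6.70% and PBS-only sites 1.29%. The AP-1 string was found in 6.42% of shared sites and 3.69% of flanks. That was 4.04 points (3.44 to 4.65) above ADR-only sites, and it differed by -12.5 points (-13.6 to -11.4) from PBS-only sites, which had 18.9%. Among sites of fold 10 or more the latter difference was -35.9 points (-41.6 to -30.4). Shared sites were again cut on the ADR fold and PBS-only sites on the PBS fold, so the size of this difference depends on that choice.

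**Figure D2:**
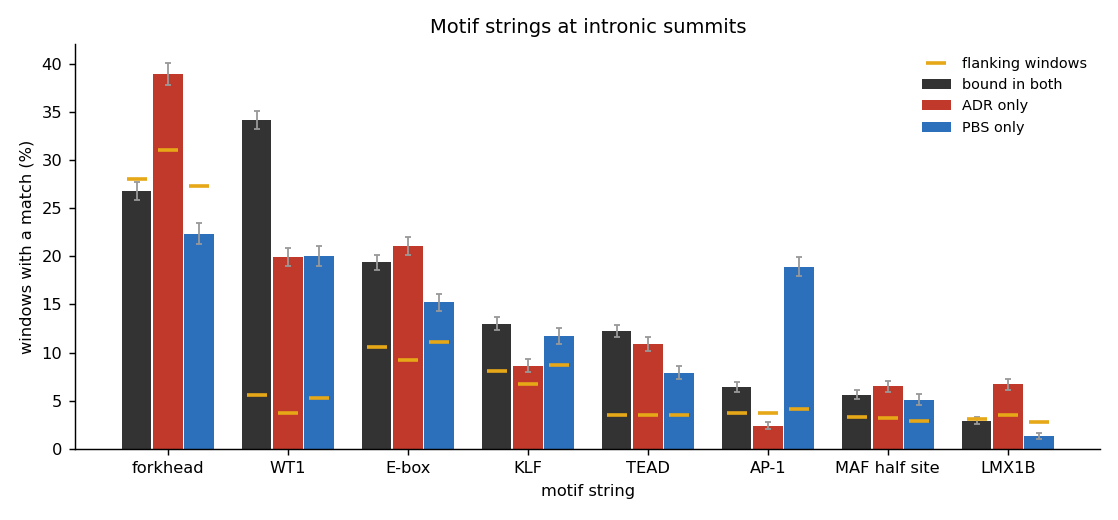
Share of 201 bp summit windows with at least 1 match (%), for 8 motif strings, in intronic sites bound in both conditions, in ADR only and in PBS only, as bars with 95% Wilson intervals. The short horizontal marks give the share in flanking windows. The WT1 string is highest in shared sites (34.1%), the forkhead and LMX1B strings in ADR-only sites and the AP-1 string in PBS-only sites.

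Among the remaining strings, a KLF string (GGGYGKGG) was found in 13.0% of shared sites and 35.8% of shared promoter sites. It exceeded ADR-only sites by 4.34 points (3.40 to 5.27) and PBS-only sites by 1.25 points (0.19 to 2.29), but at a GC content of 45 to 55% these were 1.17 and -0.327 points, with intervals that included 0. The core of a MAF recognition element (TGCTGAC) was found in 5.59%. The CTCF consensus was found in 0.77% of shared sites and 1.955% of PBS-only sites, an ETS consensus in 0.52% and 5.59% of shared promoter sites, and a full NFI site in 8 of the 9441. None of the 12 strings was found in 2256 sites (23.9%). The KLF and WT1 strings can overlap, as can the 2 forkhead strings, and a match describes the letters and is not evidence of binding. Against shared intergenic sites the intervals of the difference included 0 for the forkhead, LMX1B, TEAD, AP-1, WT1 and E-box strings.

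**Figure D3:**
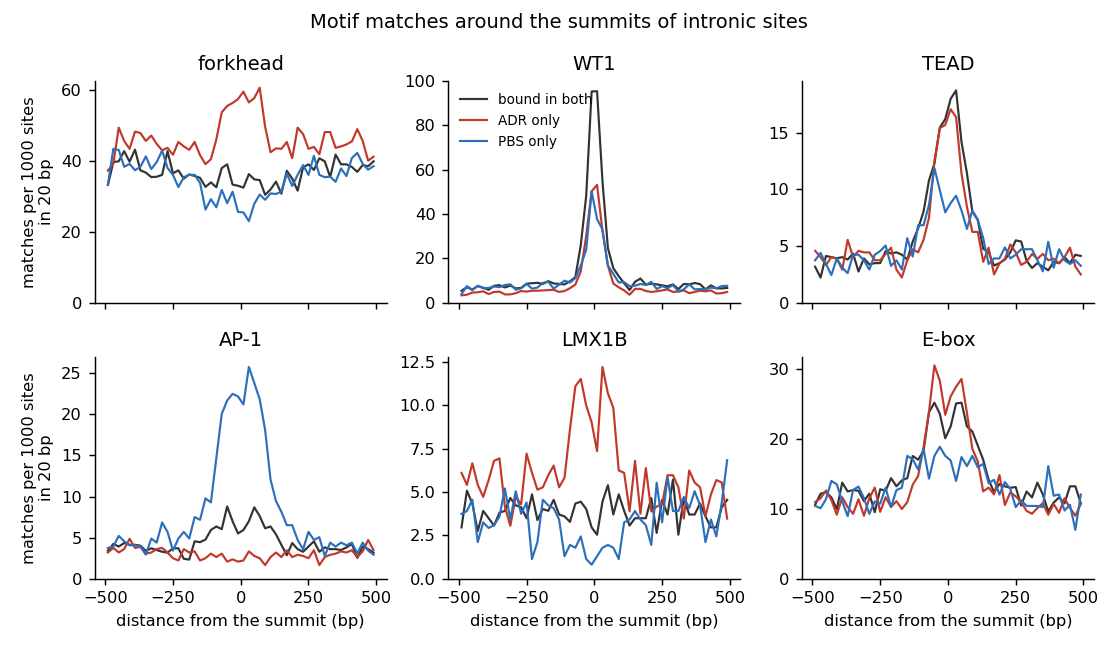
Motif matches per 1000 sites in bins of 20 bp, by distance from the summit, for 6 strings in intronic sites bound in both conditions, in ADR only and in PBS only. In shared sites the WT1 string forms a narrow peak at the summit and the TEAD string a lower one, the E-box string is raised on both sides of it, and the forkhead and LMX1B strings form none.

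Within the shared intronic sites, the strings followed the ratio of the folds. In 5 equal groups of sites by log2 ratio, from the lowest group to the highest, the LMX1B string went from 0.79% to 6.67% of sites, the forkhead string from 22.5% to 34.9%, the TEAD string from 9.26% to 14.8% and the E-box from 15.9% to 25.7%. The AP-1 string went the other way, from 12.02% to 3.18%, as did the WT1 string, from 39.3% to 26.4%. Flanking windows differed little, with 27% and 29.3% for the forkhead string and 6.43% and 5.03% for WT1. In the highest group the forkhead string was therefore above its flanks, unlike over all sites. The median GC content of these end groups was 53.2% and 51.2%, and at a GC content of 45 to 55% the difference between them for the forkhead string was 9.13 points in place of 12.4. The lowest and highest groups also had median folds of 5.82 and 18.6 in ADR and of 11.95 and 6.01 in PBS. Whether the strings went with the strength of the ADR peak apart from the ratio was not tested.

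The 275 sites with an LMX1B string had a median log2 ratio of 0.89, with median folds of 15.02 in ADR and 6.84 in PBS, against 0.16 for sites without one. Of them 64.7% had a ratio of at least 1.4 toward ADR and 5.82% toward PBS, and 76.0% had the higher percentile rank in ADR. The 606 sites with an AP-1 string had a median of -0.25 against 0.20 without, with 38.1% at least 1.4 toward PBS, and 30.5% had the higher rank in ADR. With 2 or more AP-1 matches (23 sites) the median was -0.80. Sites with 1 and with 2 or more forkhead matches had medians of 0.30 and 0.37, against 0.12 without a match, and for the E-box these were 0.31, 0.50 and 0.13. WT1 matches marked stronger sites rather than a high ratio. With 2 or more WT1 matches the median folds were 11.4 in ADR and 10.8 in PBS, against 8.97 and 7.24 without a match. Medians for the 15 pairs of these 6 strings ran from -0.41 to 1.06, and most lay within the range of the single strings, such as -0.01 for forkhead with AP-1 and 0.75 for LMX1B with WT1. Those at the ends were as follows. The 103 sites with both a forkhead and an LMX1B string, as in the *Arhgap24* window above, had a median of 1.06 and 71.8% at least 1.4 toward ADR. The 179 sites with both an AP-1 and a WT1 string, as in the *Pdcd6ip* window, had a median of -0.41 and 46.4% at least 1.4 toward PBS.

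**Figure D4:**
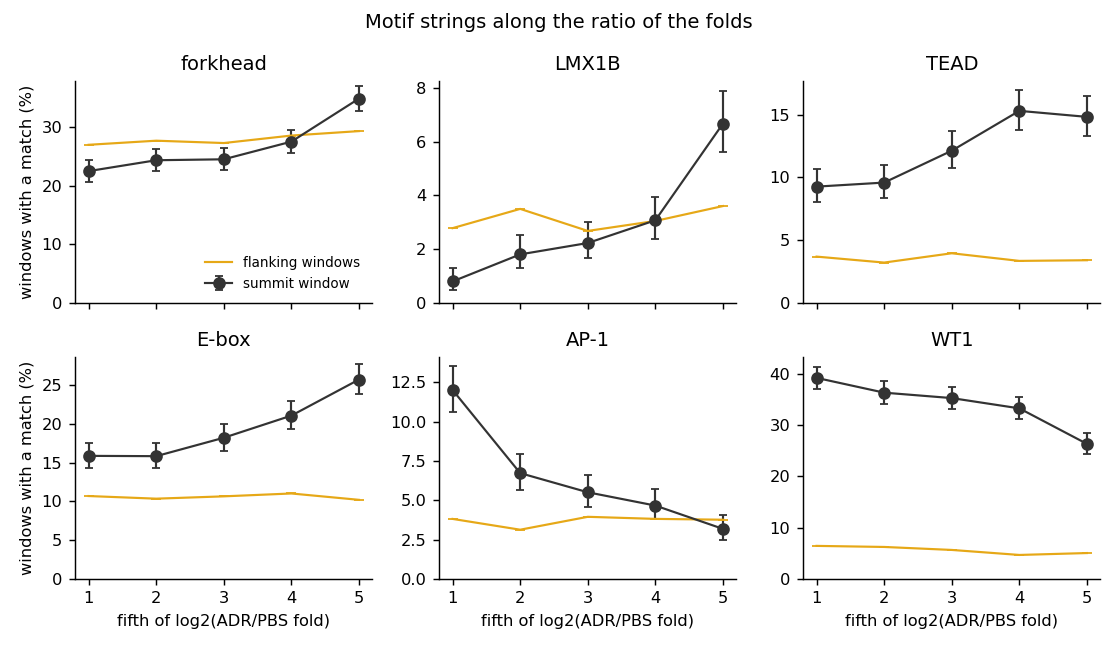
Share of summit windows (points, 95% Wilson intervals) and of flanking windows (lines without points) with a match, in 5 equal groups of the shared intronic sites by log2 ratio of ADR to PBS fold, from lowest to highest. The forkhead, LMX1B, TEAD and E-box strings are more frequent toward high ratios and the AP-1 and WT1 strings toward low ratios.

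The sites were spread over introns but favored the first. Introns as defined here cover 1014 Mb, or 9.31 sites per Mb. Of the 8090 sites in an intron of a coding gene's representative transcript, 3669 (45.4%, 44.3 to 46.4) were in the first intron, although first introns make up 26.6% of that length (17.4 sites per Mb against 7.59 in later introns). ADR-only sites were in first introns in 36.6% and PBS-only sites in 43.0%, differences of 8.73 points (7.12 to 10.3) and 2.37 points (0.63 to 4.11). The median distance to the start of the representative transcript was 30930 bp, against 43310 bp for ADR-only and 31230 bp for PBS-only sites. With promoters taken as 1 kb to each side, the first-intron share was 41.2% and the median distance 37790 bp. The ratio went with distance to the nearest transcript start. The 2000 sites within 2 kb had a median log2 ratio of 0.0097 and the 611 sites at 50 kb or more one of 0.37, with 25.2% and 44.5% at least 1.4 toward ADR. In the same 2 groups the median GC content was 57.2% and 49.8%, the WT1 string was found in 37.55% and 29.95%, and the forkhead string in 19.4% and 31.3%. Over all shared intronic sites the median GC content was 52.7%, against 49.3% in ADR-only, 51.7% in PBS-only and 64.7% in shared promoter sites. A soft-masked repeat held the summit in 14.4% of them, 4.34 points below ADR-only sites (-5.50 to -3.20) and 2.71 points above PBS-only sites (1.63 to 3.78).

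Coding genes hosted 8682 of the sites, and 759 lay only in other genes. A site was found in 3742 of 21938 coding genes (17.1%), of which 2141 had 1 and 117 had 10 or more, together holding 1684 sites. The genes with the most sites were *Gm20388* (115), an annotated transcript that spans many other genes, *Fgfr2* (32), whose longest annotated transcript likewise spans its neighbors, *Zbtb7c* (32), *Maml3* (29), *Gse1* (27), *Tns1* (27), *Msi2* (22), *Tns3* (22), *Zfp423* (22) and *Gas7* (20). *Tns1* and *Tns3* encode tensins, which link integrins to actin. Single genes lay on either side of the 35.9% toward ADR and 20.5% toward PBS of all sites. Of the 22 sites in *Zfp423* 17 were at least 1.4 toward ADR and 2 toward PBS, while of the 27 in *Tns1* 2 were toward ADR and 10 toward PBS, the pair being picked as opposites after their values were seen. Among the 117 genes with at least 10 sites the gene medians of the log2 ratio ran from -0.51 in *Aff1* to 1.49 in *Lmx1b*, both named after their values were seen, and 35 medians were at least 1.4 toward ADR and 1 toward PBS.

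*Lmx1b*, mutated in nail-patella syndrome, thus had the highest median of these genes. Its 10 sites all lay in intron 2, 4034 to 65098 bp from the transcript start. The ADR folds ran from 5.49 to 46.5 and the PBS folds from 3.38 to 14.01, and 8 sites were at least 1.4 toward ADR and 1 toward PBS. The exception, 47200 bp from the start, had 5.49 in ADR and 7.82 in PBS and held an AP-1 and a WT1 match. The site of the window shown above was the highest in both lists.

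The 48 genes characteristic of podocytes that the study examined had 136 sites in 34 genes. They lay at 36.4 per Mb of intron against 10.04 for all coding genes, with a median log2 ratio of 0.61 against 0.18. Of them 77 (56.6%) were at least 1.4 toward ADR and 18 (13.2%) toward PBS, beside 36.3% and 20.3% of the sites in all coding genes. By percentile rank 71.3% were higher in ADR, beside 49.7%. The list comes from earlier single-cell work, and the study had already examined FOXC2 binding at these genes in these samples, so the counts are a description and not independent evidence of a direction. *Sept11*, a septin gene, had 15 sites, all higher in ADR and 12 by at least 1.4, with ADR folds up to 28.0 and PBS folds up to 14.1. *Arhgap24*, which encodes a Rac GTPase-activating protein linked to podocyte motility, had 13 sites. Neighboring sites of intron 3, 332090, 348541 and 351848 bp from the transcript start, had the highest ratios, with 21.9, 42.9 and 31.003 in ADR and 3.05, 5.72 and 7.14 in PBS. Other sites of the gene were nearly even, such as 7.92 in ADR and 8.07 in PBS. *Rab3b*, a vesicle GTPase gene, had 5 sites with 19.96 to 33.1 in ADR and 10.03 to 17.2 in PBS. Its most even site, 19.96 and 17.2, was the only one with a WT1 match, a string found in 34.1% of all shared intronic sites.

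*Podxl*, the gene of the surface sialomucin podocalyxin, had 6 sites, all higher in ADR, with 5.69 to 11.9 in ADR and 3.48 to 8.59 in PBS. *Tmem150c* had 2 sites, with 27.03 and 24.02 in ADR and 4.46 and 4.98 in PBS, the largest median of the 48 genes (2.44). *Synpo*, the synaptopodin gene, whose product binds actin in foot processes, had 9 sites that were split, with 3 at least 1.4 toward each condition. Its folds were 3.52 to 23.0 in ADR and 5.23 to 19.9 in PBS. *Igfbp7*, a secreted binding protein gene, had 11 sites with 3 toward ADR and 4 toward PBS and a median log2 ratio of -0.15. *Nphs1* had a log2 ratio of -0.99 at its only site and *Wt1* one of -0.27, with folds of 3.91 and 4.72 near the floor.

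Sites of other podocyte genes also differed within 1 gene. *Sdc4*, a heparan sulfate proteoglycan gene, had 7 sites, with the strongest nearly even (45.1 in ADR and 44.3 in PBS) and a neighbor in the same intron at 42.4 and 17.1. *Sema3g*, a secreted semaphorin gene, had 2 sites, one nearly even at high folds (44.8 in ADR and 54.3 in PBS) and one at 32.2 and 5.38. *Ildr2* had its highest log2 ratio, 1.21, at a site in intron 7 with 2 TEAD matches (20.07 in ADR and 8.66 in PBS). The nestin gene *Nes* had 1 site (32.7 in ADR and 10.8 in PBS), with a TEAD and a WT1 match.

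An LMX1B match was found at 8 sites of the 48 genes, and each had the higher fold in ADR, beside 79.4% of all sites of these genes. They were in *Npnt*, the gene of the integrin ligand nephronectin (27.6 in ADR and 8.23 in PBS), *Golim4* (24.7 and 7.29), *Pak1*, a kinase gene downstream of Rac and Cdc42 (20.8 and 6.31), *Eif3m* (32.5 and 7.68, in an intron shared with *Ccdc73*), *Tmem150c* (27.03 and 4.46), *Tmsb4x*, the gene of an actin-sequestering peptide (9.38 and 6.197), *Sept11* (13.6 and 5.49) and the *Arhgap24* window above. This count was made after the values were seen. The lowest site of *Npnt*, 5.62 in ADR and 9.98 in PBS, had an AP-1 match. *Enpep*, an aminopeptidase gene, had 4 sites, all higher in ADR, of which the 2 with a TEAD match were the strongest and most even (38.0 and 30.8, 28.8 and 23.8).

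**Figure D5:**
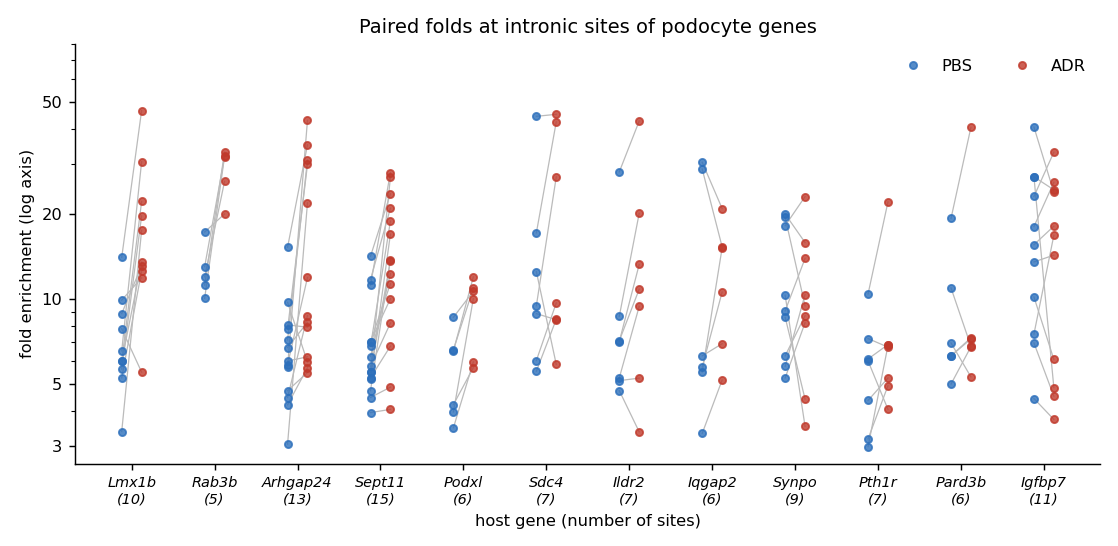
Fold enrichment (log axis) in PBS and ADR at each shared intronic site of the podocyte genes with at least 5 sites, lines joining paired peaks, genes ordered by median log2 ratio with the number of sites in parentheses. *Lmx1b*, *Rab3b*, *Arhgap24* and *Sept11* lie mostly higher in ADR, while *Synpo* and *Igfbp7* go both ways.

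Other groups were counted by role. Slit diaphragm and polarity genes had 104 sites, with 48 at least 1.4 toward ADR (46.2%) and 10 toward PBS (9.62%) and a median log2 ratio of 0.44. Over all coding-gene sites these shares were 36.3% and 20.3%, the median 0.18 and the density 10.04 per Mb, against which each group and gene that follows can be read. *Fyn* had 13 sites (8 and 1), *Plce1*, a phospholipase gene of hereditary nephrotic syndrome, had 9 (6 and 0, with its strongest site at 47.0 in ADR and 36.2 in PBS), *Ptpro*, a receptor phosphatase gene, had 11 (5 and 0), and *Tjp1*, which encodes the junction scaffold ZO-1, had 12 (3 and 1, with a median of 0.12). Podocyte transcription factor genes had 36 sites (18 and 3, or 50% and 8.33%). Of these *Lmx1b*, described above for its high ratios, held 10 (8 and 1), and *Tead1* held 15 (5 and 2). Actin and focal adhesion genes had 145 sites (74 and 16, or 51.03% and 11.03%) at 44.6 per Mb with a median of 0.52. In that group *Palld*, the palladin gene, had 16 (9 and 1), *Myo1e* 11 (4 and 2) and *Dlc1* 11 (7 and 1), and *Parva*, the parvin gene of integrin complexes, held the strongest sites, at up to 47.0 in ADR and 51.2 in PBS. Basement membrane and integrin genes had 73 sites (28 and 15, or 38.4% and 20.55%) with a median of 0.22, close to all coding genes, and their members differed. *Itgb5* had 13 (8 and 1), *Dag1*, the dystroglycan gene, had 10 (7 and 0), *Col18a1* had 7 (3 and 0, median -0.16), and all 5 sites of *Col4a2*, a collagen chain of the early basement membrane, were at least 1.4 toward PBS, with a median of -1.14.

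Growth factor signaling genes had 135 sites (43 and 34, or 31.9% and 25.2%, near the 36.3% and 20.3% of all coding-gene sites), with a median of 0.07. Of these *Fgfr2* held 32 through its long span, and 103 remained without it (33 and 25, median 0.08). *Smad3*, a TGF-β effector, had 17 sites (3 toward ADR and 8 toward PBS), while *Smad6*, an inhibitory Smad, had 13 (6 and 1) and *Igf1r* 15 (6 and 2). The groups of other cell types held few sites, but their lists also cover little intron. Per Mb of intron, mesangial markers had 23.8 sites, proximal tubule markers 14.2 and endothelial markers 13.8, against 10.04 over all coding genes. Distal nephron markers had 6.56 per Mb and immune markers 0. Single genes weighed heavily, since *Pdgfrb* held 5 of the 9 mesangial sites and *Cubn* 6 of the 7 proximal tubule sites. Densities without these genes were not counted, so whether the other markers were rich or poor in sites is not shown. Endothelial markers had 6 sites in 4 genes (1 toward ADR and 4 toward PBS), mesangial markers 9 (1 and 2), proximal tubule markers 7 (1 and 3), distal nephron markers 1 (0 and 1) and immune markers 0. The strongest fold among the endothelial markers was 37.0, in PBS at *Ehd3*, against 6.62 in ADR. *Eng*, an endothelial coreceptor of the TGF-β family, had 3 sites, all at least 1.4 toward PBS. Whether other cells in the sort contributed to these values was not tested. Genes chosen for long introns and neuronal use had 12 sites at 0.62 per Mb.

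At the edge of the rule, the members of least overlap were in *Sh3bp5* (8 bp, 4.02 in ADR and 4.29 in PBS), *Gramd4* (13 bp, 4.07 and 3.68), *Tbc1d1* (13 bp, 4.07 and 30.6) and *Ndst1* (18 bp, 8.84 and 4.202). Just outside it lay ADR peaks in *Prmt2* (5.55) and *Ncam1* (4.07), each 4 bp from a PBS peak, *Il1r1* (3.77, 5 bp) and *Efna5* (5.69, 12 bp). An overlap of under 50 bp was found at 19 sites, and 20 intronic ADR peaks lay outside by under 50 bp.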

How the data were processed

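FOXC2 ChIP-seq covered 3 samples of sorted podocytes from ADR-treated mice and 3 from PBS-treated mice. Per the study's methods, reads were trimmed and mapped by the authors to GRCm38, narrow peaks came from nf-core/chipseq, and samples of one condition were then combined. The caller's version and thresholds are not given in the sources used here. The deposited fold is the caller's enrichment of ChIP signal over local control at the summit, a ratio without unit, and the deposited −log10 q-value measures the call. The summit offset was used as the authors deposited it, and the columns of display score and p were not used. Depth is unknown.

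Peaks were intersected and placed on GENCODE M21 with Python 3.11.15, NumPy 2.4.6 and pandas 2.3.3. Introns were numbered on 1 representative transcript per coding gene. Strings were searched on both strands in 201 bp windows on the summit and in windows 1 kb to each side, for 12 motif families, and 13 gene lists were counted. Shares have 95% Wilson intervals and differences of shares 95% Newcombe intervals. The code was tested on simulated data. Named genes were the podocyte genes and genes named by the study, hosts of the 10 highest folds in each list and of the 10 largest and smallest ratios among sites of fold 10 or more, the 10 genes with the most sites, and up to 4 genes per list with the most sites or the highest fold. Others are named as chosen after their values were seen. Remarks on which single site of a gene held a match, outside the printed windows, were also chosen after the values were seen and are no support for the trends over all sites. The sites and the lists were chosen with earlier results of these data known. Alternatives were other overlaps, annotations, thresholds, windows and GC ranges. Windows on the PBS summit, all alternatives along the ratio and the growth factor list without *Fgfr2* were added after seeing the data.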

Additional observations from a re-analysis of the deposited data

How the results depend on the processing

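No paired analysis was possible because each condition has 1 pooled peak list, and for the same reason no replicate could be left out. Of 174 alternative values for 37 results, 144 stayed in place by rules that were loose for some of them. A motif difference from other sites stayed in place if its interval still included, or still excluded, no difference, whatever its size. The AP-1 difference from PBS-only sites did so at -35.9 points among sites of fold 10 or more (the ADR fold for shared sites), beside -12.5. Counts were allowed a wide band, and 6769 sites at a fold of 5 or more in both lists, beside 9441, stayed in place. The share of sites with the higher fold in ADR was 56.4% after centering on all shared peaks, 56.7% with an overlap of 50% of both peaks, 59.2% at a −log10 q of 5 or more, and turned to 49.4% by percentile rank. At a ratio of 2, 1849 sites were toward ADR and 730 toward PBS, without a count over all shared ADR peaks beside them.

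The cut at a fold of 10 or more used the ADR fold for shared and ADR-only sites and the PBS fold for PBS-only sites. Among sites of fold 10 or more, differences from PBS-only sites were 4.50 points for the forkhead string, 1.12 for the strict forkhead string, 3.11 for WT1, 1.53 for KLF and, reversed, 0.18 for CTCF. Differences from ADR-only sites there were 0.105 for CTCF, -1.10 for MAF and, reversed, 0.47 for the E-box. Intervals of these included 0. At a GC content of 45 to 55% KLF differed by 1.17 from ADR-only and, reversed, by -0.327 from PBS-only sites, CTCF by 0.232 and MAF by -0.952 from ADR-only sites. Over 2 kb from any transcript start KLF differed by 0.664 from PBS-only sites, and MAF by -0.797, the E-box by -0.985 and NFI by 0.0917 from ADR-only sites. TEAD differed from ADR-only sites by 0.40 points within 50 bp and 0.909 with windows on the PBS summit, and MAF by 0.642 from PBS-only sites within 50 bp. Between the groups of highest and lowest ratio, the difference was 9.13 points for the forkhead string at a GC content of 45 to 55%, -10.6 for AP-1 on the PBS summit and -17.2 for WT1 at a −log10 q of 5 or more. With promoters 1 kb to each side, 41.2% lay in first introns, at a median of 37790 bp from the start. The causes were not tested. Without replicates and with unknown depth, no ratio of a single site can be told from sampling error.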
